A study of Mus musculus with 3 samples.

Results

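Cyp24a1, Cyp27b1, Vdr, Kl, Calb1, Pvalb and Egf are 7 genes of vitamin D turnover, klotho signalling and calcium handling in the distal tubule of the kidney. They were taken as every table row that the array's annotation pairs with 1 of these symbols alone, which gave 11 of the 16281 rows and 7 of the 10698 annotated genes. A log ratio was available on all 3 arrays for 9 of the 11 rows and for 6 of the 7 genes. The genes were chosen by their log ratios on these same arrays, so their values are given as a description and carry no test. The 3 BALB/c mice, numbered 11, 12 and 13, were separate animals studied 1 day after injection of anti-GBM antibody, which binds the basement membrane of the glomerulus and models glomerulonephritis. Total kidney RNA of each mouse carried the red dye Cy5 on its own 2-colour array, and kidney RNA pooled from 5 normal BALB/c mice carried the green dye Cy3. The pool is 1 control sample and no array had swapped dyes, so the spread between normal mice and any dye bias of a probe were not measured. The labels name no Cre, transgene or further treatment, and log ratios hold no level against which kidney markers could be checked.

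Vitamin D becomes active in the kidney when the mitochondrial enzyme Cyp27b1 adds a hydroxyl group, and the 24-hydroxylase Cyp24a1 starts its breakdown. The active hormone binds its nuclear receptor Vdr, which pairs with a retinoid X receptor and is a strong inducer of Cyp24a1. Klotho, the product of Kl, is the co-receptor that lets the hormone FGF23 act on tubule cells, where FGF23 lowers phosphate reabsorption, represses Cyp27b1 and induces Cyp24a1. In the distal convoluted and connecting tubule, Calb1 (calbindin-D28k) and Pvalb (parvalbumin) buffer the calcium that crosses the cell, and Egf encodes the precursor of a growth factor that also controls magnesium uptake there.

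Promoter sequences were read from RefSeq (build GRCm38.p6), as the bases from 250 before the start site up to it, for 5 of the 7 genes. The 3 shown belong to the genes with an entry whose log ratio was below 0 on all 3 arrays, from the start site farthest upstream. Capitals mark matches to the half-site letters of nuclear receptors such as Vdr (AGGTCA or GGTTCA or AGTTCA or GGGTCA) and to the GC box GGGCGG, each on either strand.
Kl chr5:150952357-150952606, plus strand: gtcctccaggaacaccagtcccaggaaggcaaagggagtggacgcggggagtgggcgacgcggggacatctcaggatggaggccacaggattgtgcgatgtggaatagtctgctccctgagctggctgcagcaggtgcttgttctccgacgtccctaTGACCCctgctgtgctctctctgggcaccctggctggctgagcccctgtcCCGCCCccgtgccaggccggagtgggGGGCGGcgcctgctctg
Egf chr3:129755323-129755572, minus strand: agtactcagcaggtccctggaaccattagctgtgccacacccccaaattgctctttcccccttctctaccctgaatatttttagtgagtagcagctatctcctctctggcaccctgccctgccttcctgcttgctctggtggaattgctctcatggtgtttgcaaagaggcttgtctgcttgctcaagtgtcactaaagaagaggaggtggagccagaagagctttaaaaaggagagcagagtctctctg
Pvalb chr15:78206401-78206650, minus strand: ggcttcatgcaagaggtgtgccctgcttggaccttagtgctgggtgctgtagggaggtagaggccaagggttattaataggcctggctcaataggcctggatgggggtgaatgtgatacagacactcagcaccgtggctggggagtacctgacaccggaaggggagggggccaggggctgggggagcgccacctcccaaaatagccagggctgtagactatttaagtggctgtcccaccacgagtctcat
The Kl sequence held 1 half-site, GGGTCA on the opposite strand, whose first base lay at -93 from the start, and 2 GC boxes at -43 and -17. It had 66.8% G and C bases and 13 CG pairs, against medians of 52.4% and 6 over 32851 promoter sequences. The Egf and Pvalb sequences shown held neither motif and had 0 and 4 CG pairs. Each of these genes has another start site farther downstream, not shown, also with neither motif. That sequence had 15 CG pairs for Egf, and 23 CG pairs and 71.6% G and C bases for Pvalb. The contrast with Kl in CG pairs thus depends on the start site chosen, while the contrast in motifs does not. Over all promoter sequences, 38.6% held a half-site and 32.7% a GC box, so a match is common, and 0.0396% held 2 half-sites 3 bases apart, the arrangement that Vdr and its partner bind. No printed sequence held such a pair in these windows, and a match is a description of letters only.

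All values below are log ratios after each array was centred on its median, given as mean ± SD over n = 3 mice. The base of the log is not stated, so folds are given for base 2 and for base 10. A value above 0 is read as more transcript in the anti-GBM kidney than in the pool. This direction is likely but unstated: the labels give Cy5 to the anti-GBM RNA, and tables of this kind usually hold Cy5 over Cy3. With the opposite ratio every sign would turn. In whole kidney, fewer cells of a type and less RNA per cell cannot be told apart.

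The enzymes of vitamin D turnover differed from each other in these kidneys. Cyp24a1 was at 1.69 in mouse 11, 1.12 in mouse 12 and 1.36 in mouse 13. All 3 mice were far above 0, with a mean of 1.39 ± 0.29, which is 2.63-fold for base 2 and 24.7-fold for base 10. It ranked 7 from the top among the 7235 genes with an estimate in every mouse, and 0.0968% of these genes had a mean as high. The 55 rows measured within 50 row numbers of its row had a median of -0.01, a lowest value of -0.99 and a highest value of 1.12. Cyp27b1, the activating enzyme, was at -0.40, 0.14 and -0.06 in mice 11, 12 and 13. The mice lay on both sides of 0, and the mean was -0.11 ± 0.28. The SD of Cyp27b1 was larger than its mean. Both enzymes varied more between mice than most genes, with SDs at the 92.8 percentile for Cyp24a1 and the 91.6 percentile for Cyp27b1. The lowest Cyp24a1 value, 1.12, was above the highest Cyp27b1 value, 0.14, so the ranges of these enzymes did not overlap. The receptor Vdr has 1 row, listed at exactly 0 on all 3 arrays, which was read as no estimate and not as an equal level.

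**Figure D1:**
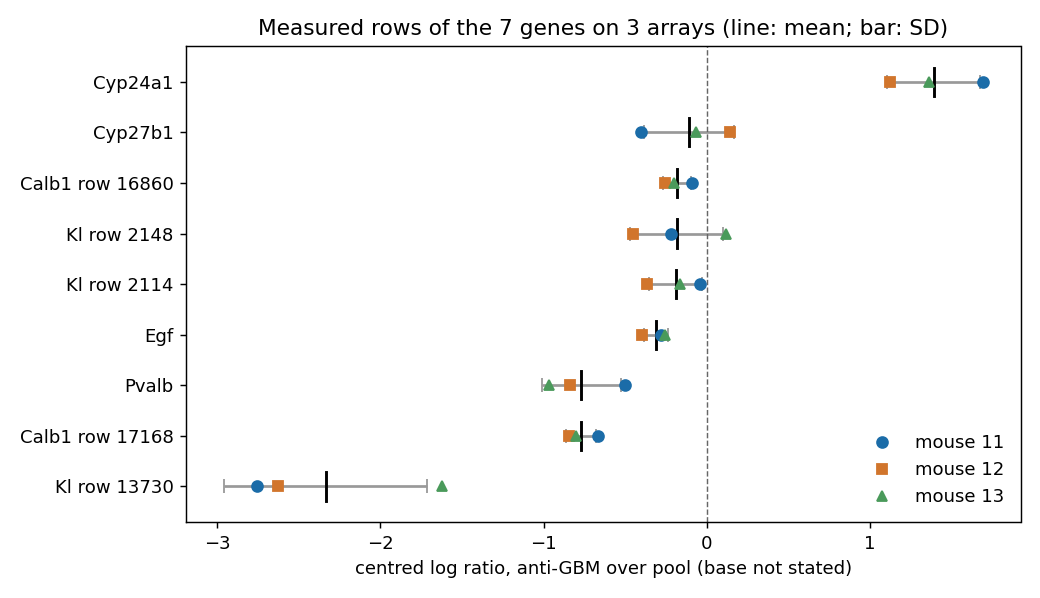
Centred log ratio (horizontal axis, base not stated) of the 9 measured rows of the 7 genes, with 1 symbol per mouse, a line at the mean and a bar for the SD. Cyp24a1 lies between 1.12 and 1.69, the lowest Kl row between -2.76 and -1.62, and the other Kl rows lie near 0.

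The 3 rows of Kl gave different answers. Row 13730 was at -2.76 in mouse 11, -2.63 in mouse 12 and -1.62 in mouse 13, a mean of -2.34 ± 0.62. Row 2114 was at -0.04, -0.36 and -0.16 in the same mice, a mean of -0.19 ± 0.16. Row 2148 was at -0.22, -0.45 and 0.12, a mean of -0.18 ± 0.29. The first row was thus far below 0 in every mouse, and the other rows were close to 0, with mouse 13 above 0 in row 2148. Rows 13730 and 2148 carry the same accession in the annotation, and the annotation does not say which part of the transcript each probe covers. The mean over the 3 rows was -0.90 ± 0.31, ranking 34 from the bottom of 7235 genes, with an SD at the 94.7 percentile. Without row 13730, a choice made after its values were seen, the mean was -0.19 ± 0.20. The gene's position near the bottom therefore rests on that row alone.

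A gap of this size between rows of 1 gene was rare on these arrays. The rows of Kl spanned 2.15, against a median span of 0.17 over 1103 genes with more than 1 measured row, and 8 of these genes, Kl included, spanned as much. Among 208 accessions with more than 1 measured row the median span was 0.19, and Kl had the second largest. Neighbouring rows did not share the low value. The 41 rows measured within 50 row numbers of row 13730 had a median of -0.04 and a lowest value of -0.48. What made the rows of Kl differ was not tested.

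**Figure D2:**
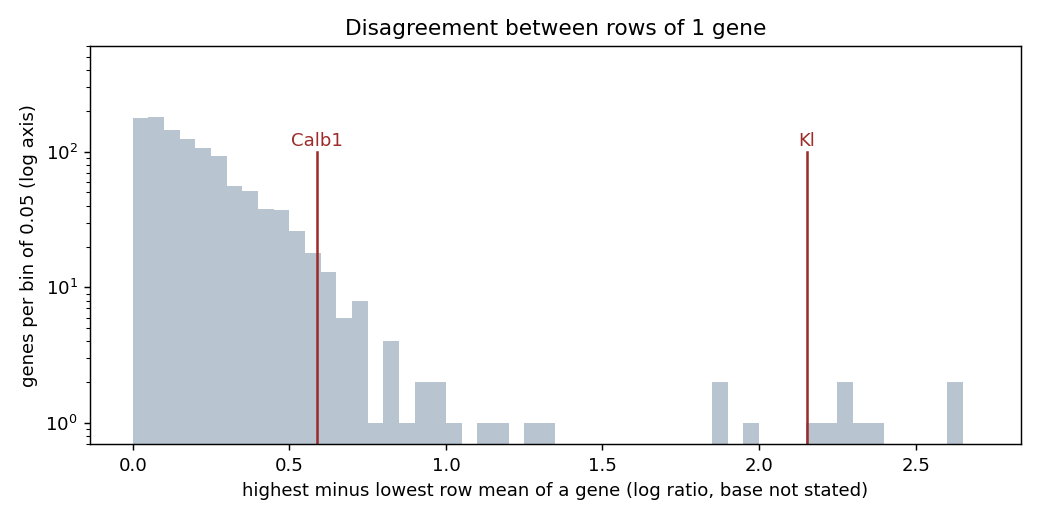
Span between the highest and the lowest row mean of a gene (horizontal axis, log ratio of unstated base) over 1103 genes with more than 1 measured row, counted per bin of 0.05 on a log axis. The line for Kl stands at 2.15 among 8 genes with spans at least as large, and the line for Calb1 at 0.59.

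The calcium-binding protein genes Calb1 and Pvalb were both below 0. Calb1 has 2 rows. Row 17168 was at -0.66, -0.84 and -0.80 in mice 11, 12 and 13, a mean of -0.77 ± 0.09, which is 1.70-fold below the pool for base 2 and 5.88-fold for base 10. Row 16860 was at -0.09, -0.26 and -0.20, a mean of -0.18 ± 0.08. The rows had the same sign in every mouse but differed in size, and their ranges did not overlap. Their span of 0.59 was reached by 4.99% of the genes with several rows. The mean over both rows was -0.48 ± 0.09, and 2.7% of genes had a mean as low. Row 16860 lies in a stretch of row numbers crowded with rows below -1, and row 17168 does not.

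Pvalb has 1 row, which was at -0.50 in mouse 11, -0.84 in mouse 12 and -0.97 in mouse 13. All mice were below 0 with a mean of -0.77 ± 0.24, and 0.622% of genes had a mean as low. Parvalbumin is also abundant in fast skeletal muscle, so muscle markers were set beside it. Of 20 muscle markers 14 were measured, and their list medians were 0.01, 0.10 and -0.01 in mice 11, 12 and 13. Among them 0 were higher and 1 was lower past the test described below, against 2 higher and 2 lower at an unadjusted p under 0.05. The called share was 7.14%, beside 19.4% of all genes. At the unadjusted threshold 1276 of all 7235 genes were higher and 1326 were lower. The muscle marker called lower was the fast myosin Myh1 (-1.27 ± 0.32, limma adjusted p = 0.00105). The creatine kinase Ckm was at 0.23 ± 0.14 and the fast myosin Myh4 at 0.13 ± 0.15, both short of the threshold. Eno3 (-0.28 ± 0.23), Actn3 (-0.20 ± 0.22), Tnnt3 (-0.14 ± 0.03) and Mb (-0.10 ± 0.05) were below 0 in every mouse and also did not pass. Ryr1 (0.24 ± 0.24), Tnnc2 (0.17 ± 0.16), Tpm2 (0.15 ± 0.09) and Cacna1s (0.06 ± 0.07) were, like Ckm, above 0 in every mouse and did not pass. Of the 14 measured markers, 5 were above 0 in every mouse and 5 were below 0 in every mouse. The part of muscle RNA in the Pvalb value was not tested.

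Egf has 2 rows, of which 1 is listed at exactly 0 on every array and was read as no estimate. The other was at -0.28, -0.39 and -0.26 in mice 11, 12 and 13. The mice were all below 0 and close together, with a mean of -0.31 ± 0.07, which is 1.24-fold below the pool for base 2 and 2.05-fold for base 10. This was a modest value on these arrays, as 8.09% of genes had a mean as low, and its SD was at the 22.2 percentile.

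In order, the gene means ran from Cyp24a1 at 1.39 through Cyp27b1 (-0.11), Egf (-0.31), Calb1 (-0.48) and Pvalb (-0.77) to Kl (-0.90). Cyp24a1 stood clear of all the others. Every other pair of neighbours in this order overlapped in its mouse values: Cyp27b1 with Egf, Egf with Calb1, Calb1 with Pvalb, and Pvalb with Kl. The genes Egf, Calb1, Pvalb and Kl were below 0 in all 3 mice, as were 28.7% of all genes tested, and Cyp24a1 was above 0 in all 3, as were 27.8%. As these log ratios chose the genes, nothing is read from that count.

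**Figure D3:**
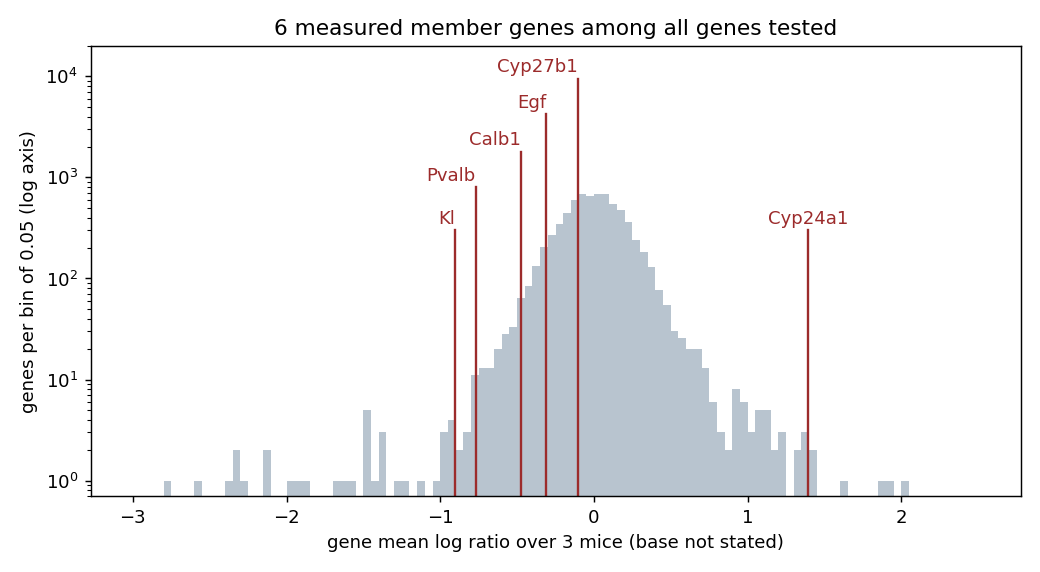
Number of genes per bin of 0.05 (vertical log axis) by mean log ratio over 3 mice (horizontal axis, base not stated), for 7235 genes. Lines mark the 6 measured genes, with Cyp24a1 at 1.39 in the upper tail, Kl at -0.90 and Pvalb at -0.77 in the lower tail, and Cyp27b1 at -0.11 near the centre.

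The genes nearest to each of the 3 genes with the largest means were found by Euclidean distance over the 3 arrays. Nearest to Cyp24a1 were the kinetochore genes Cenph (mean 1.36 ± 0.12, distance 0.25) and Ska1 (1.32 ± 0.08, distance 0.46) and the proliferation marker Mki67 (1.24 ± 0.14, distance 0.35). Nearest to Pvalb were Vpreb2 (-0.80 ± 0.27), the glucose transporter Slc2a4 (-0.79 ± 0.18) and the peptide hormone Cck (-0.72 ± 0.18), all within a distance of 0.14. Nearest to the 3-row mean of Kl were the potassium channel Kcnj9 (-0.89 ± 0.20), Sdf2l1 (-0.92 ± 0.39) and the adhesion molecule Ncam1 (-0.99 ± 0.23). Like those of Kl, the rows of Sdf2l1 and Ncam1 disagreed, with spans of 2.29 and 1.90. With 3 arrays, a small distance says little beyond a like mean.

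Genes of the surrounding pathways were tested in a fit over all 7235 genes, in which each gene's mean log ratio was compared with 0 by limma with Benjamini-Hochberg adjustment. Past an adjusted p of 0.05, 686 genes (9.48%) were higher and 721 (9.97%) were lower, together 19.4%, and the median of all genes was -0.001. Without mouse 11 the counts were 304 and 304. With every mouse kept, 1276 genes were higher and 1326 lower at an unadjusted p under 0.05. Adjusted p-values below are from this fit. They leave out the spread between normal mice, and any dye bias of a probe stays in them.

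Among partners of vitamin D metabolism and its receptor, 12 of 23 genes were measured. The test called 1 higher and 2 lower and left 9 uncalled, and the median was -0.05. The share that passed, 25%, was not far from the 19.4% of all genes. The retinoid X receptor Rxra, partner of Vdr on DNA, was at -0.34, -0.22 and -0.49 in mice 11, 12 and 13 (mean -0.35 ± 0.14, adjusted p = 0.0254). With mouse 11 left out its adjusted p was 0.108, and with mouse 13 left out 0.0719. The related Rxrb was at -0.13 ± 0.09 and its rows disagreed, at 0.14 and -0.40. The co-activator Snw1, which binds Vdr, was lower (-0.37 ± 0.11, adjusted p = 0.0171), with an adjusted p of at most 0.0499 with 1 mouse left out. The transcription factor Cebpb was higher (0.37 ± 0.20, adjusted p = 0.0289), a call lost without any 1 of the mice (highest adjusted p = 0.0852). Adrenodoxin Fdx1, which passes electrons to Cyp24a1 and Cyp27b1, was at -0.30 ± 0.21 (adjusted p = 0.059) and did not pass. Among macrophage markers, noted because activated macrophages can also make Cyp27b1, 5 of 11 were higher and 1 was lower, a called share of 54.5% beside 19.4% of all genes. The Fc receptor Fcgr1 (0.65 ± 0.28), the protease Ctss (0.48 ± 0.13) and lysozyme Lyz2 (0.47 ± 0.31) were among the higher, the growth factor receptor Csf1r was lower (-0.72 ± 0.33), and the list medians were 0.38, 0.20 and 0.28 in mice 11, 12 and 13. Without mouse 11 the higher markers Ctss (adjusted p = 0.0596), Lyz2 (0.158), Mpeg1 (0.269) and Aif1 (0.278) were no longer called, which leaves Fcgr1 among the 5. Lyz2 and Mpeg1 also lost their calls without mouse 13 (0.0659 and 0.0724), and Aif1 without mouse 12 (0.109). The rows of Aif1 disagreed, at 0.07 and 0.55. The part of such cells in the Cyp27b1 and Cyp24a1 values was not tested.

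Among FGF receptors, klotho relatives and phosphate transporters, 14 of 25 genes were measured, with 0 higher, 1 lower and 13 not passing (median -0.05), a called share of 7.14% beside the 19.4% of all genes. At an unadjusted p under 0.05, 1 was higher and 3 were lower, beside 1276 higher and 1326 lower of all 7235 genes. The klotho relative Klb, a co-receptor for other FGF hormones, was at -0.19 ± 0.12 (adjusted p = 0.116). The receptors Fgfr1, Fgfr3 and Fgfr4, with which klotho can pair, were at -0.16 ± 0.11, 0.06 ± 0.10 and 0.04 ± 0.11. The proximal tubule phosphate carrier Slc34a1 was at -0.13 ± 0.15 (adjusted p = 0.307), its relative Slc34a2 at -0.05 ± 0.23, and the carrier Slc20a1 at 0.17 ± 0.11. The lower gene was Phex, an endopeptidase whose loss raises FGF23 (-0.39 ± 0.11, adjusted p = 0.0153). It lost its call without mouse 11 (adjusted p = 0.0534). Adam10 and Adam17, proteases that shed klotho from the cell surface, were at -0.17 ± 0.05 and -0.04 ± 0.07 and did not pass.

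Distal tubule transport genes went both ways. Of 33 genes 19 were measured, with 3 called higher, 3 called lower, 13 uncalled and a median of 0.07. The share that passed was 31.6%, beside the 19.4% of all genes. The sodium-calcium exchanger Slc8a1, which moves the calcium carried by calbindin out of the cell, was at -0.55, -0.45 and -0.73 in mice 11, 12 and 13 (mean -0.58 ± 0.15, adjusted p = 0.00534). Its 4 rows were all below 0, at -0.36, -0.92, -0.42 and -0.60, and the call held in each fit without 1 of the mice, with an adjusted p of at most 0.0158. The row at -0.92 lies in a crowded stretch, and the call also held with such rows left out. The calcium pump Atp2b1, the other way out of the cell, was at -0.22 ± 0.08 (adjusted p = 0.0757) and did not pass. On the entry side, the calcium channel Trpv6 was at 0.12, 0.32 and -0.15 (mean 0.10 ± 0.24), with the mice on both sides of 0. The small calbindin S100g, another vitamin D target, was at 0.55, 0.03 and -0.29 (mean 0.10 ± 0.42), so its mice differed by more than its mean. The magnesium-permeable channel Trpm7 was at 0.03 ± 0.23, the magnesium transport protein Cnnm2 at -0.17 ± 0.05 (adjusted p = 0.131, rows at -0.02 and -0.32), and the calcium-sensing receptor Casr at 0.07 ± 0.05.

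The potassium channels of the same segments differed. Kcnj10, the basolateral channel of the distal convoluted tubule, was lower (-0.38 ± 0.08, adjusted p = 0.0148), and Kcnj1, the apical channel ROMK, was lower (-0.31 ± 0.07, adjusted p = 0.0261). Kcnj16, the partner subunit of Kcnj10, was higher (0.31 ± 0.20, adjusted p = 0.0482). The sodium pump subunit Atp1b1 (0.28 ± 0.04) and the HNF1 cofactor Pcbd1 (0.29 ± 0.08) were also higher (adjusted p = 0.0309 and 0.0349). The rows of Atp1b1 ran in opposite order over mice 11, 12 and 13, at 0.50, 0.41 and 0.17 and at -0.02, 0.15 and 0.49. The small SD of Atp1b1 is that of the average of these rows. Kcnj10 was no longer called without mouse 11 (adjusted p = 0.0934), Kcnj1 without mouse 11 or 12, Kcnj16 without mouse 11 or 13 (0.163 at most), and Atp1b1 and Pcbd1 without any 1 of the mice. Kcnj16 also missed the threshold when rows with 2 estimates were added (adjusted p = 0.0624) and with crowded stretches left out (0.0585). Pcbd1 and Kcnj16 were named after their values were seen. The thiazide-sensitive cotransporter Slc12a3, the defining carrier of the distal convoluted tubule, was at 0.15, 0.20 and 0.23 (mean 0.19 ± 0.04, adjusted p = 0.0935). Its mice were all above 0, while those of Calb1, Pvalb, Egf and Slc8a1 were all below. The loop cotransporter Slc12a1 was at -0.04 ± 0.34, and Umod is listed at 0 on all 3 arrays.

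**Figure D4:**
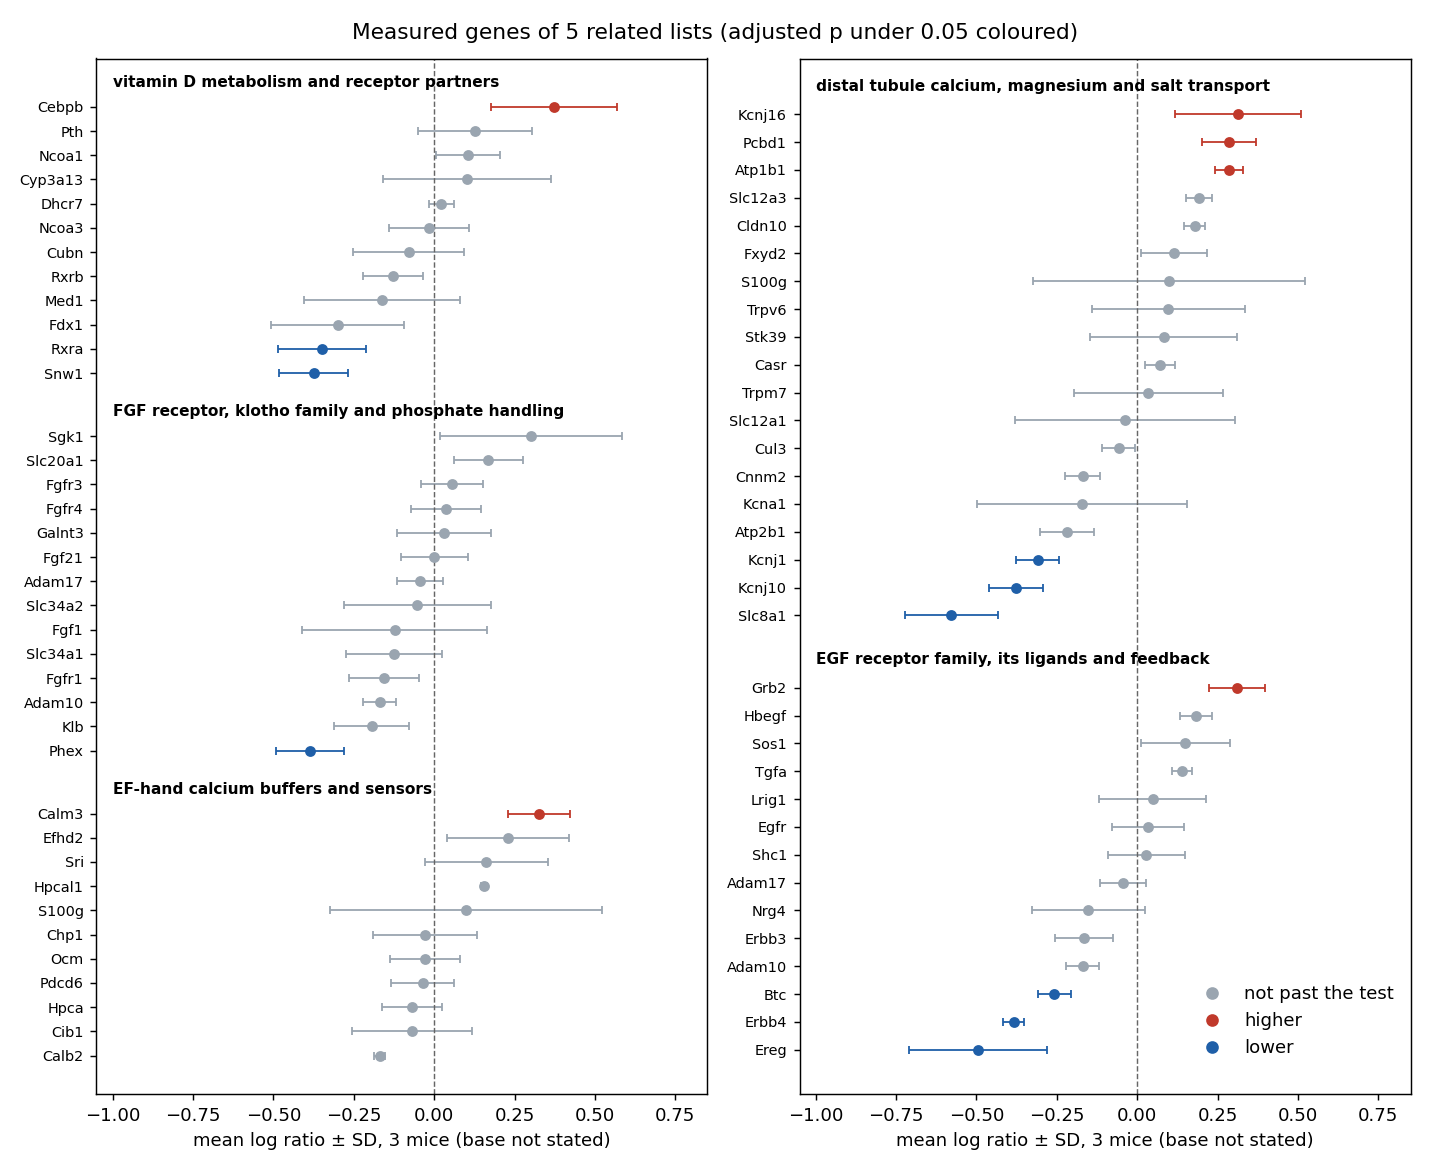
Mean log ratio ± SD over 3 mice (horizontal axis, base not stated) of each measured gene in 5 lists of related genes, coloured where limma's adjusted p was under 0.05. Slc8a1 at -0.58 and Ereg at -0.50 are the lowest genes called, and Cebpb at 0.37 the highest.

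Of 21 other EF-hand calcium-binding proteins 11 were measured, with 1 higher, 0 lower and 10 not passing (median -0.03). This is a called share of 9.09%, beside 19.4% of all genes, and at an unadjusted p under 0.05 there were 2 higher and 1 lower. Of all 7235 genes, 1276 were higher and 1326 lower at that unadjusted threshold. The calbindin relative Calb2 (calretinin) was at -0.16, -0.19 and -0.16 (mean -0.17 ± 0.02, adjusted p = 0.125), below 0 in every mouse. The mean of Calb2 was close to Calb1 row 16860 at -0.18 and far from Calb1 row 17168 at -0.77. The rows of Calb2 were at -0.21 ± 0.10 and -0.13 ± 0.08, so its small SD is that of their average. Oncomodulin Ocm, a parvalbumin, was at -0.03 ± 0.11. The calmodulin gene Calm3 was higher (0.33 ± 0.10, adjusted p = 0.0253), but its call was lost without any 1 of the mice (highest adjusted p = 0.171). Whether Calb1 and Pvalb differ from this list was not tested.

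In the EGF receptor family, 14 of 20 genes were measured, with 1 higher, 3 lower and 10 not passing (median -0.01). The share that passed was 28.6%, beside 19.4% of all genes. The ligands betacellulin Btc (-0.26 ± 0.05, adjusted p = 0.0418) and epiregulin Ereg (-0.50 ± 0.21, adjusted p = 0.0135) were lower. The ligands Hbegf (0.18 ± 0.05) and Tgfa (0.14 ± 0.03) were above 0 in every mouse and did not pass (adjusted p = 0.109 and 0.19). Among the receptors, Erbb4 was at -0.41, -0.35 and -0.40 (mean -0.38 ± 0.03, adjusted p = 0.0117). Egfr itself was at 0.03 ± 0.11 and Erbb3 at -0.17 ± 0.09, neither past the test. The adaptor Grb2, with 3 rows between 0.26 and 0.34, was higher (0.31 ± 0.09, adjusted p = 0.0277). Without mouse 11 the adjusted p was 0.078 for Erbb4, 0.0761 for Ereg and 0.15 for Grb2. For Grb2 it was also 0.0916 without mouse 12, and for Btc it was 0.137 without mouse 12 and 0.0687 without mouse 13. Without mouse 11, a further row of Btc with estimates in mice 12 and 13 alone (-2.64 and -1.67) enters its mean, which becomes -1.21.

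Markers of other kidney and blood cells were read beside these values. Of the markers of the proximal tubule, where Cyp27b1 acts, 2 of 7 measured genes were higher and 0 lower (28.6% called, beside 19.4% of all genes), with the same counts at an unadjusted p under 0.05. Their list medians were 0.05, -0.27 and 0.17 in mice 11, 12 and 13. The higher genes were the organic anion transporters Slc22a6 (0.30 ± 0.03) and Slc22a8 (0.26 ± 0.09), whose calls were lost without any 1 of the mice. Slc22a8 also missed the threshold when rows with 2 estimates were added (adjusted p = 0.0633). The median of the proximal tubule list was -0.08. Gatm (-0.17 ± 0.67), Fbp1 (-0.15 ± 0.32), Slc34a1 (-0.13 ± 0.15) and Cubn (-0.08 ± 0.17) had means below 0, and Aqp1 (0.15 ± 0.04) above 0, none past the test. Collecting duct markers had 0 of 11 genes higher and 4 lower, again with the same counts at an unadjusted p under 0.05. For both lists, the counts over all 7235 genes at that unadjusted threshold were 1276 higher and 1326 lower. The share of collecting duct markers called at the adjusted threshold was 36.4%, beside 19.4% of all genes. The list medians of these markers were 0.01, 0.03 and -0.10 in mice 11, 12 and 13. The lower genes were the anion exchanger Slc4a1 (-0.76 ± 0.29), the water channel Aqp3 (-0.47 ± 0.20), the intercalated cell factor Foxi1 (-0.44 ± 0.24) and the vasopressin receptor Avpr2 (-0.41 ± 0.15). The call of Foxi1 was lost without mouse 11 or 13. Aqp2 (0.12 ± 0.05), Scnn1b (0.11 ± 0.03) and Slc26a4 (0.10 ± 0.07) were above 0 in every mouse and did not pass. Erythroid markers had 3 of 4 measured genes lower (75%, beside 9.97% of all genes), the carbonic anhydrase Car1 (-1.67 ± 0.54), the transcription factor Klf1 (-0.98 ± 0.39) and Slc4a1, the last of which intercalated cells also express. The only row of Car1 lies in a crowded stretch. The fourth marker, the heme synthesis enzyme Alas2, was at 0.23, 0.36 and 0.03 in mice 11, 12 and 13 and did not pass (adjusted p = 0.126). The part of these cells in the values of Calb1, Pvalb, Egf and Kl was not tested.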

How the data were processed

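Kidney RNA of 3 anti-GBM mice was measured against 1 shared pool on 2-colour arrays. The deposited table gives 1 score per row and array, read as a log ratio of the channels, and the authors' scanner, background correction, normalization and flags are unknown (not given in the sources used here). Between 29.5% and 33.7% of an array's values are exactly 0, and these were read as no estimate. Depth does not apply to arrays, and their number limits the precision. Signal brightness was not used here. The labels give a separate mouse for each array, so spreads between mice hold both biological and technical variation, which cannot be told apart here.

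Row names came from the platform annotation, in which 13738 rows name 1 gene. All 7 gene numbers were found in the RefSeq table (GRCm38.p6). Each array was centred on its median without zeros. Rows with an estimate on all 3 arrays were averaged per gene, and the gene means were tested against 0 in an intercept-only model with eBayes of limma 3.58.1, run under R 4.3.3 (prior of 5.55 degrees of freedom). Stretches called crowded have at least 3 other rows below -1 within 100 row numbers.

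The genes, the 5 lists of related genes (119 genes, 67 measured) and the 5 marker lists were chosen with earlier results of these data known. Genes named from a list are the 4 with the smallest p among those past the threshold, and the measured ones among a set of calcium, magnesium and phosphate channels and carriers and of FGF, EGF and retinoid X receptors. Some others, chosen after their values were seen, are named for their role or because few were called. The 3 nearest genes are given for genes with a mean over 0.5 in size. Promoters were searched and figures drawn in Python 3.11.15 with pandas 2.3.3 and matplotlib 3.10.9. Alternatives changed the reading of zeros, the arrays required, centring, a running median over 101 rows, the averaging of rows, crowded stretches, moderation and each mouse in turn.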

Additional observations from a re-analysis of the deposited data

How the results depend on the processing

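The means of Cyp24a1 and Pvalb moved by less than their SD under every alternative run, but most of these could not move them that far. Each gene has 1 row, with an estimate in every mouse and outside crowded stretches. The reading of zeros, the arrays required, the averaging of rows and crowded stretches therefore left its mean unchanged. Leaving out 1 of 3 mice cannot move a mean by 1 SD. With 1 mouse left out, the means ranged from 1.24 to 1.53 for Cyp24a1, -0.90 to -0.67 for Pvalb, -1.08 to -0.78 for Kl, -0.52 to -0.44 for Calb1, -0.34 to -0.27 for Egf and -0.23 to 0.04 for Cyp27b1, whose sign turned without mouse 11. The mean of Kl was -0.28 with the median over rows and -0.19 without its lowest row. The mean of Calb1 was -0.77 with crowded stretches left out, which removes 1 of its rows. The mean of Egf was -0.16 with zeros read as an equal level, which brings in its row at 0.

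With zeros read as an equal level, 1 gene was higher and 0 were lower among all genes (1169 and 1225 at an unadjusted p under 0.05), and 0 members passed in either direction in each of the 5 lists. Rows at 0 on every array then have almost no spread, and the prior had 0.654 degrees of freedom. Without moderation, 2 genes were higher and 1 was lower (807 and 827 at an unadjusted p under 0.05), and again 0 members of the lists passed. Rows with an estimate on 2 or 3 arrays gave 0 higher EF-hand genes, 0 higher vitamin D partners and 1 higher gene of the FGF receptor and phosphate list. With 1 mouse left out, the counts ranged over all genes from 304 to 558 higher and 304 to 575 lower. For the distal tubule list they ranged from 0 to 1 higher and 1 to 3 lower, for the EGF receptor list from 0 to 1 higher and 1 to 2 lower, and for the vitamin D list 0 were higher and 1 to 2 lower. For the FGF receptor and phosphate list 0 to 2 were higher and 0 to 1 lower, and for the EF-hand list 0 were higher and 0 lower. These fits have fewer arrays, so a lost call can come from lost power. Of 314 comparisons of a result with an alternative, 261 changed by less than 1 SD between mice or, for counts, by no more than 1.5 times, and 53 changed by more. The 261 include means that an alternative could not alter, such as row means under another averaging of rows. They also include means with 1 of 3 mice left out, which cannot move by 1 SD when every mouse has an estimate. The tally is therefore not a rate of stability. A value near 0 can change sign within 1 SD. No paired analysis was possible because there is a single group of mice.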
